A study of Mus musculus with 78 samples.

Results

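The proteasome genes described here are the protein-coding genes whose mouse symbol begins with Psm, a letter from a to g and a number, without the immunoproteasome genes Psmb8, Psmb9 and Psmb10. The rule found 47 of the 36904 gene IDs in the table, and 45 of them were among the 18218 genes with enough reads to test. The other 2, Psma8 and Psmb11, are isoforms known from testis and thymus, and their medians over all libraries were 0.0423 and 0 CPM (a gene's counts per 1000000 counts of a library). In soleus, a slow postural muscle, 36 of the 45 tested members fell in females of 20 months against females of 6 months. In the same comparison of males 37 fell, where 17.8% and 22% of all genes tested fell in females and males. A gene counts as fallen here where its edgeR quasi-likelihood adjusted p was under 0.05. Log2 fold changes below 0 were held by 39 members in females and 41 in males. The counts of members that fell were 11 and 28 once trends on transcript length and GC content were removed. In that fit 11.1% of all genes fell and 5.15% rose in females, and 21.4% fell and 9.78% rose in males. At 28 months in the same batch 8 members in females and 14 in males fell against 6 months, where 9.04% and 9.38% of all genes fell. There 33 members in females and 38 in males had log2 fold changes below 0. Without 1 library at a time 0 to 19 members passed in females and 2 to 21 in males, and with the trends removed 0 did in either sex. None differed past the threshold between CaAKG-fed and control males.

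Soleus RNA came from C57Bl/6 mice of both sexes, and all groups other than the CaAKG one had control feed. Each library was labelled as a separate replicate, but a pair from 12-month females shared an animal tag and was summed to 1 replicate. Batch 2 held 12 males of 28 months fed CaAKG (calcium alpha-ketoglutarate) at 2% of the feed; alpha-ketoglutarate is a metabolite of the citric acid cycle. Their controls were 10 males of 28 months in batch 2, beside 7 females of 28 months in that batch. Batch 1 held controls only. Its females numbered 4, 6, 6 and 6 at 6, 12, 20 and 28 months, and its males 6, 6, 9 and 5 at these ages. The design text gives Invivos (Singapore) as the source of the 6- and 12-month mice and the Jackson laboratory as the source of the 20-month mice, so age and supplier cannot be told apart between 20 months and the younger ages. It also describes mice brought in at 17 months for the feeding trial, and does not tie a supplier to the 28-month mice.

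The 26S proteasome degrades proteins tagged with ubiquitin. Its barrel, the 20S core, is built of outer alpha rings (Psma genes) that gate the entrance and inner beta rings (Psmb genes), of which Psmb5, Psmb6 and Psmb7 encode the subunits with chymotrypsin-like, caspase-like and trypsin-like activity. The 19S cap binds tagged proteins, removes the ubiquitin and feeds the chain into the core. It holds a ring of ATPases (Psmc genes) and further subunits without ATPase activity (Psmd genes). Psmg genes and the partner Pomp help the core to assemble, Psmd5, Psmd9 and Psmd10 help the cap, and Psme1 to Psme4 and Psmf1 encode other activators and an inhibitor of the core. In muscle this system breaks down myofibrillar proteins during wasting, together with the ubiquitin ligases Fbxo32 and Trim63. The members fall into 8 alpha-ring, 8 beta-ring, 6 ATPase and 11 non-ATPase genes, 3 cap chaperones, 4 core chaperones and 6 activator or inhibitor genes. The remaining one, Psmc3ip, matches by symbol and encodes a meiotic recombination cofactor, no proteasome subunit.

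In units of 1000000 counts, the libraries held 19.5 to 112.4 counts (median 35.2, the highest being a pair of libraries summed), of which 10.1% to 46.5% came from the mitochondrial genome. In 5 libraries Xist or Ddx3y went against the sex label, namely those labelled 12-month female replicates 1 and 4, 12-month male replicate 3, 6-month female replicate 3 and 6-month male replicate 3. In 9 further libraries markers of skin or of neutrophils and marrow summed to over 100 CPM: CaAKG replicates 6, 7, 8 and 10, batch 2 control male replicate 4, 28-month batch 1 female replicates 8, 10 and 12, and 12-month female replicate 5. All 14 were kept under their labels, and counts without them are given beside the results they change. The 8 slow-fibre markers, among them Myh7 and Tnnt1, were above 0 in each age group of batch 1.

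Members of the core were among the more abundant transcripts of the complex. Per kilobase of transcript, the median over libraries was highest for Psmb7 at 159 CPM, followed by Psmb5 at 134 CPM, Psmb6 at 122.6 CPM and Psma6 at 115 CPM. It was 7.12 to 13.9 CPM per kilobase for the 4 core chaperones, 5.95 for Psmf1, the inhibitor PI31, and 1.68 for Psme2b, a close relative of Psme2 with which reads may be shared. Unscaled for length, the median of 32 members exceeded 50 CPM, and the middle member was at 85.0 CPM, against 5.72 CPM for the middle gene of all genes tested. Of the 47 members 21 overlap another annotated gene, 16 of them one on the other strand. The strand setting of the counting is not given in the sources used here, so reads of such partners cannot be told apart.

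The core and cap genes are known targets of the transcription factor NRF1 (Nfe2l1), which binds antioxidant response elements, so their promoters were searched for the letters TGACNNNGC on both strands. RefSeq promoters (GRCm38.p6, the assembly of mm10; 250 bases before to 50 bases after the start) matched 39 of the 47 genes, with 42 promoters. The motif was present in 6 of the 42 (14.3%), against 12.4% of all 32851 promoters, a share near the background. Also on both strands, the CCAAT box was in 14 member promoters (33.3%, against 37.4% of all) and GAANNTTC, a core of heat shock elements, in 2 (4.76%, against 7.86% of all). Windows of 51 bases around the match are shown for a pair of catalytic subunits, a cap chaperone and the activator Psme4, because these genes differ in how they changed with age; capitals mark the motif, and Psme4 has it on the opposite strand. The windows lie at chr14:54618013-54618063 (minus strand), chr11:70525327-70525377, chr5:123228138-123228188 and chr11:30771747-30771797 (plus strand), and the first base of the motif stands at -47, -9, -31 and -7 from the start.
Psmb5: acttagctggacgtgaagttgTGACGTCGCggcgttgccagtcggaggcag
Psmb6: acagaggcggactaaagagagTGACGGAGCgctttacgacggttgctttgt
Psmd9: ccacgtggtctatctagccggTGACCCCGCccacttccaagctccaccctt
Psme4: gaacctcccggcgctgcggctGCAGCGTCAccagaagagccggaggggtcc

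Averaged over the 45 tested members, the means at 6 and 12 months lay within their SDs of each other, and the mean at 20 months was lower. The mean of log2 CPM over members was 6.11 ± 0.12 (SD, n = 4) at 6, 6.12 ± 0.10 (n = 6) at 12, 5.68 ± 0.05 (n = 6) at 20 and 5.97 ± 0.20 (n = 6) at 28 months in females of batch 1. In males it was 6.16 ± 0.06 (n = 6), 6.18 ± 0.06 (n = 6), 5.67 ± 0.12 (n = 9) and 5.97 ± 0.04 (n = 5) at the same ages. No 20-month library reached the lowest 6-month library of its sex, which stood at 5.96 in females and 6.09 in males. In batch 2 the mean was 5.79 ± 0.12 (n = 12) in CaAKG males, 5.79 ± 0.10 (n = 10) in control males and 5.72 ± 0.11 (n = 7) in control females. In bulk RNA, fewer cells of a type and less RNA per cell cannot be told apart.

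**Figure D1:**
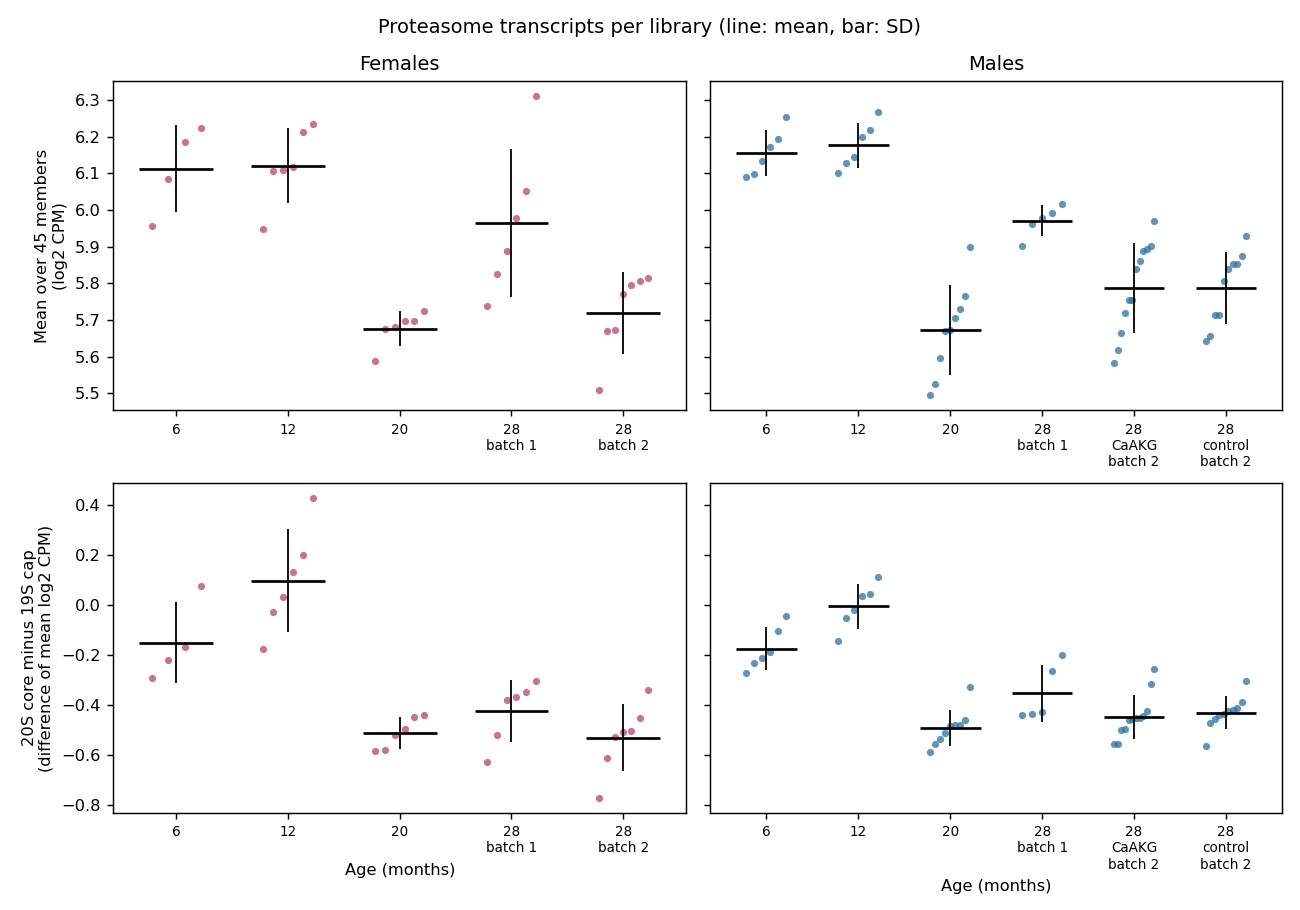
Mean log2 CPM over the 45 tested members (top) and mean log2 CPM of the 20S core minus that of the 19S cap (bottom) in each library, by age and batch, with females left and males right. Each point is a library, lines are group means and bars are SD. The 20-month points lie between 5.49 and 5.90 in males and between 5.59 and 5.72 in females, below every 6-month point.

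The level of the 20S core relative to the 19S cap was lower on average at 20 and 28 months than at 6 and 12 months. The core minus the cap, as a difference of mean log2 CPM, was -0.15, 0.10, -0.51 and -0.43 at 6, 12, 20 and 28 months in batch 1 females, and -0.18, -0.0059, -0.49 and -0.36 in males. Within groups the SD of this difference was 0.06 to 0.21 in batch 1. These are averages over members, with no trend on transcript length or GC content removed, and were given no test.

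At 20 months the catalytic subunits of the core were lower than at 6 months in every library of both sexes. Psmb5 (ENSMUSG00000022193, mm10 chromosome 14, 54614119 to 54618022), the chymotrypsin-like subunit, was at 78.1, 81.4 and 85.3 CPM (lowest, median, highest) in 20-month females, against 119.7, 165, 182 and 151 CPM in the 4 females of 6 months. Males had 67.8, 83.5 and 107 CPM at 20 months, against 139, 159 and 182 CPM at 6 months. The groups did not overlap in either sex, and the log2 fold change was -0.92 (SE 0.13, edgeR QL adjusted p = 6.2e-08) in females and -0.94 (SE 0.11, adjusted p = 4.1e-11) in males. Adjusted p values here and below are Benjamini-Hochberg values over all 18218 genes from the edgeR quasi-likelihood fit (edgeR QL), with a threshold of 0.05.

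Psmb6 (chromosome 11, 70525367 to 70527858), the caspase-like subunit, was at 75.5, 79.1 and 83.4 CPM in 20-month females, against 109.8, 157, 172 and 143 CPM in 6-month females. Males had 65.5, 79.7 and 97.9 CPM at 20 months, against 133, 143 and 164 CPM at 6 months, so neither sex overlapped. Psmb6 fell by 0.88 on the log2 scale in both sexes (SE 0.12 in females and 0.10 in males, edgeR QL adjusted p = 2.4e-08 and 2.0e-11). Psmb7, the trypsin-like subunit, was at 148, 162 and 189 CPM in 20-month females, against 219, 279, 297 and 247 CPM in 6-month females, and at 141, 159 and 208 CPM in 20-month males, against 234, 269 and 295 CPM in 6-month males. Its log2 fold changes were -0.67 and -0.70. Here too each 20-month library lay below the 6-month libraries of its sex.

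All 7 tested beta-ring genes fell in both sexes, and their median log2 fold changes were -0.68 in females and -0.70 in males. Psmb4, a structural subunit of this ring, was the member with the smallest p in females. Its mean was 106 ± 4.15 CPM at 20 months (SD, n = 6) and 196 ± 25.4 CPM at 6 months (n = 4) in females, a log2 fold change of -0.89 (SE 0.11, edgeR QL adjusted p = 3.8e-09), and in males it was at -0.86 (SE 0.09, adjusted p = 5.2e-12). All 7 tested alpha-ring genes fell as well, with medians of -0.57 and -0.64. Psma7 was at 52.8, 56.8 and 61.7 CPM in 20-month females, against 78.9, 117, 141 and 94.1 CPM in 6-month females, with log2 fold changes of -0.92 in females and -0.88 in males. Psma1 was at 66.5, 70.5 and 76.2 CPM in 20-month females, against 96.6, 106.4, 103 and 95.4 CPM in 6-month females, again without overlap. Psma5 moved least of this ring, at -0.39 and -0.40.

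Not all cap genes moved in one direction. Of the 6 ATPases 5 fell in females and 6 in males (medians -0.35 and -0.39), Psmc6 being the one that did not pass in females (-0.24, edgeR QL adjusted p = 0.082). Psmc4 was at 57.2, 63.6 and 70.2 CPM in 20-month females, against 82.6, 93.2, 93.3 and 84.1 CPM in 6-month females, and at -0.47 and -0.45 in females and males. Of the 11 non-ATPase genes 8 fell and 1 rose in each sex (medians -0.33 and -0.46). With the length and GC trends removed, the medians lay closer together, at -0.28 and -0.38 in females and males for the beta ring, -0.34 and -0.40 for the alpha ring, -0.19 and -0.26 for the ATPases and -0.23 and -0.31 for the non-ATPase genes. Among the non-ATPase genes that fell were Psmd8, at -0.66 and -0.80, Psmd14, the deubiquitinase of the cap, at -0.29 and -0.60, and Psmd4, a ubiquitin receptor, at -0.44 and -0.51. Psmd14 was at 46.6, 55.3 and 60.4 CPM in 20-month females, against 62.7, 71.6, 67.1 and 65.9 CPM in 6-month females, without overlap. Its call in females was lost in 5 of 10 fits that each left out 1 library, and those of Psmc1 and Psmd12 in 4.

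Psmd1, the large scaffold subunit of the cap, rose. It was at 122.5, 145 and 154 CPM in 20-month females, against 118, 114, 81.1 and 115 CPM in 6-month females, and at 131, 136 and 163 CPM in 20-month males, against 104, 113.3 and 128 CPM in 6-month males. The groups did not overlap in either sex; the log2 fold change was 0.41 (SE 0.12, edgeR QL adjusted p = 0.0040) in females and 0.30 (SE 0.10, adjusted p = 0.0079) in males. The lowest 6-month female value belongs to the library labelled replicate 3, whose sex markers did not match. Without all doubted libraries Psmd1 was at 0.30 in females (adjusted p = 0.041). Psmd2, the other large scaffold, was at -0.08 and -0.14, and Psmd11, a lid subunit that joins cap and core, at 0.32 and -0.05, none past the threshold. Psmd11 was at 94.0, 110.9 and 124.1 CPM in 20-month females, against 84.1, 104.6, 77.9 and 90.5 CPM in 6-month females, so its groups overlapped.

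The 4 assembly chaperones of the core fell in both sexes, with medians of -0.96 in females and -0.92 in males. With the length and GC trends removed these were -0.45 and -0.47, and 2 of the 4 fell in females and 3 in males. Psmg1, which pairs with Psmg2 to build the alpha ring, was at 5.76, 6.66 and 7.54 CPM in 20-month females, against 10.4, 11.3, 12.7 and 13.8 CPM in 6-month females. Males had 5.67, 7.03 and 8.23 CPM at 20 months, against 10.9, 12.4 and 15.2 CPM at 6 months. Its log2 fold change was -0.85 (SE 0.11, edgeR QL adjusted p = 9.2e-09) in females and -0.88 (SE 0.09, adjusted p = 1.8e-12) in males, the smallest p of any member in males. No library of 20 months reached one of 6 months in either sex. Psmg4 and Psmg3, which form another chaperone pair, were at -1.27 and -1.07 in females and -1.14 and -0.97 in males. The medians of Psmg3 and Psmg4 over all libraries were 5.75 and 5.68 CPM. Of the cap chaperones, Psmd9 and Psmd10 fell in both sexes (Psmd9 at -0.47 and -0.72), and Psmd5 was at 0.12 and -0.06.

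Among the activators, Psme1 and Psme2, the subunits of the interferon-inducible PA28 ring, fell in both sexes, Psme2 at -0.79 and -0.65. Psme1 overlapped between the groups, at 24.1, 28.1 and 33.8 CPM in 20-month females against 34.3, 36.9, 49.1 and 32.9 CPM in 6-month females, and without the doubted libraries it was at -0.31 in females (edgeR QL adjusted p = 0.079). Psme4 (chromosome 11, 30771726 to 30880361), the PA200 activator that caps the core in place of the 19S particle, rose. It was at 134, 175 and 205 CPM in 20-month females, against 142, 138, 109.0 and 149 CPM in 6-month females, and at 161, 179 and 217 CPM in 20-month males, against 110.4, 135 and 161 CPM in 6-month males. The log2 fold change was 0.34 (SE 0.14, adjusted p = 0.048) in females and 0.45 (SE 0.11, adjusted p = 0.00067) in males. In females the groups overlapped and the call was lost in 6 of 10 fits that each left out 1 library. Psme3, Psme2b and Psmf1 passed in neither sex.

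**Figure D2:**
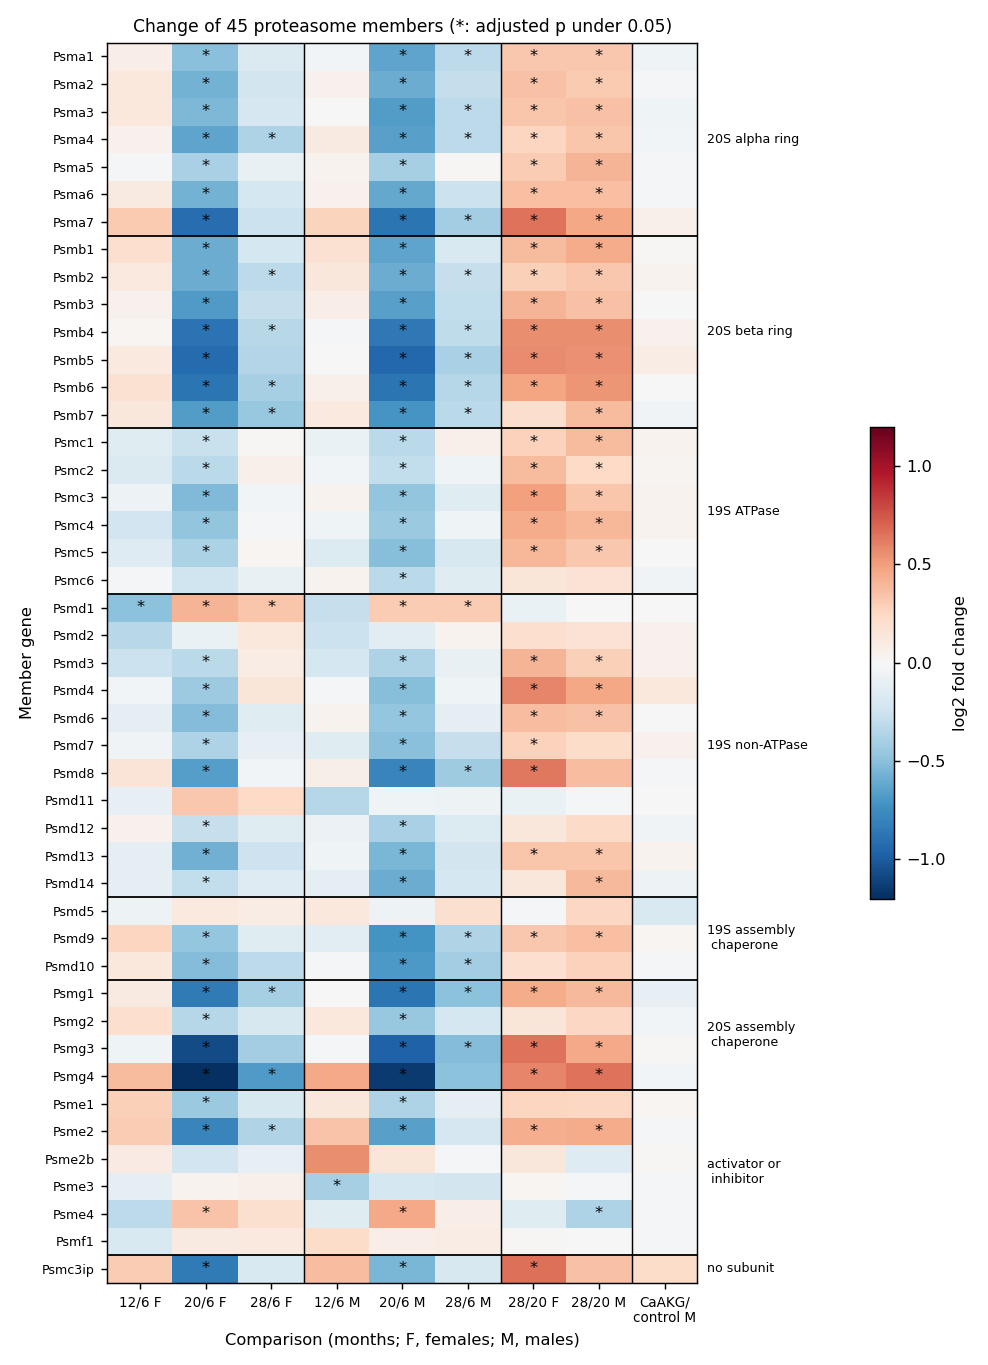
Log2 fold change of the 45 tested members (rows, grouped by part of the complex) in 9 comparisons (columns), colour from blue (lower in the older or CaAKG group) to red (higher; values past the scale take its end colour), with a star where the edgeR QL adjusted p was under 0.05. The columns of 20 against 6 months are blue except for a few rows such as Psmd1 and Psme4, those of 28 against 20 months are mostly red, and the CaAKG column holds no star.

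In total 2 members rose and 36 fell in 20-month females against 6-month females, and 2 rose and 37 fell in males. The background was high: over all genes tested 18.2% rose and 17.8% fell in females, and 22.6% rose and 22% fell in males. The median member was at -0.50 in females and -0.55 in males, against 0.00 and 0.02 for the median of all genes. The 36 members that fell in females also fell in males, and Psmd1 and Psme4 rose in both. Without the 14 doubted libraries 35 members passed in females and 40 in males. Over all genes 6336 and 8958 passed in that fit, against 6562 and 8128 with all libraries. Of the members called, 31 in females and 38 in males passed in every fit that left out 1 library. Of the 24 members that overlap no other annotated gene 19 fell in females and 20 in males, while Psmd1 and Psme4 are both among the 21 that overlap one.

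Log2 fold changes ran with transcript length, over all genes and over the members. Members are short, with a median transcript length of 1382 bases, against 2495 bases over all genes tested. Across genes, the Spearman correlation of log2 fold change with length was 0.71 over the 45 members and 0.56 over all genes in females, and 0.61 and 0.52 in males. These correlations are across genes of the same libraries, and genes are not independent replicates. Among transcripts under 1000 bases the median log2 fold change in females was -0.79 over 11 members and -0.73 over 2201 genes. Between 1000 and 1500 bases it was -0.52 over 14 members and -0.51 over 2154 genes, and between 2000 and 3000 bases -0.16 over 8 members and -0.04 over 4242 genes. The 3 members of 3000 bases or more, Psmd1, Psmd5 and Psme4, had a median of 0.34, against 0.49 over 6780 genes of that length. In males the median was -0.65 over the 11 members under 1000 bases, against -0.70 over all genes of that length, and for members between 1500 and 3000 bases it lay below that of all genes, at -0.50 over 9 members against -0.28 over 2389 genes up to 2000 bases, and at -0.27 against -0.02 from 2000 to 3000 bases.

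**Figure D3:**
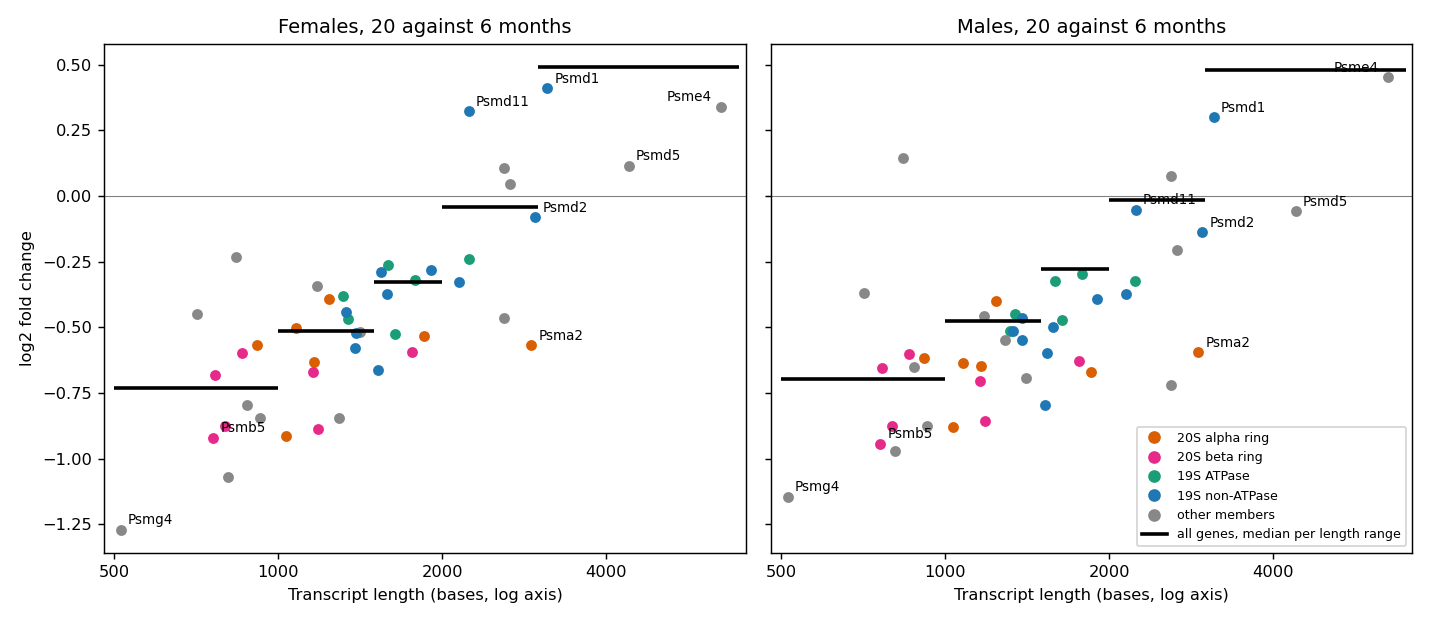
Log2 fold change of each tested member in 20- against 6-month mice (vertical axis) by median transcript length (horizontal axis, log scale), females left and males right, coloured by part of the complex. Black bars are the median of all genes in each length range, cut at the edges of the plot. In both panels short members lie lowest and long ones highest, as the bars do, from Psmg4 at -1.27 and -1.14 up to Psmd1 and Psme4 above 0.

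When each library's trend on transcript length and on GC content was removed by offsets in the fit, fewer members passed. In females 11 fell and 0 rose, where 11.1% of all genes fell and 5.15% rose, and in males 28 fell and 0 rose, where 21.4% of all genes fell and 9.78% rose. These offsets moved the median of all genes by -0.11 in females and -0.14 in males. Relative to that median the median member was at -0.17 in females and -0.23 in males with the offsets, and at -0.50 and -0.57 without them. Psma2, Psma3, Psma4, Psma7, Psmb1, Psmb4, Psmd9, Psme2, Psmg1 and Psmg4 fell in both sexes with and without the offsets. The lengths used are medians over annotated transcripts, for example 2911 bases for Psma2 and 2597 for Psmd9. Whether these are the transcripts expressed in soleus was not tested. Of the 28 that fell in males with the offsets, 24 had also fallen without them. The others were Psmd2 at -0.35, Psmd5 at -0.63 and Psme3 at -0.38 (edgeR QL adjusted p = 0.043, 0.0013 and 0.027), and Psme4. Psmb4 was then at -0.54 (edgeR QL adjusted p = 0.0059) in females and -0.55 (adjusted p = 0.00019) in males, and Psmb5 at -0.28 (adjusted p = 0.22) and -0.38 (adjusted p = 0.012). Psme4, the longest member at 6491 bases, changed direction, to -0.51 (adjusted p = 0.021) in females and -0.41 (adjusted p = 0.013) in males, and Psmd1 was at 0.14 and 0.01, past no threshold. None of the 6 ATPases passed in females with the offsets, and 1 did in males.

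Markers of vessels also differed between these groups. The 12 endothelial markers, each above 0 in all 4 groups, summed to 582 to 726 CPM in 20-month females, against 180 to 405 CPM in 6-month females, and to 611 to 789 CPM in 20-month males, against 162 to 279 CPM in 6-month males. Of these 12, 10 rose and 1 fell in females and 10 rose and 0 fell in males. The 8 adipocyte markers summed to 243 to 374 CPM in 20-month females, against 212 to 394 CPM in 6-month females, and to 269 to 924 CPM in 20-month males, against 143 to 336 CPM in 6-month males; 1 rose in females and 6 in males. The 10 macrophage markers summed to 102 to 144 CPM in 20-month females, against 47.3 to 227 CPM in 6-month females, and to 90.2 to 168 CPM in 20-month males, against 72.05 to 430.3 CPM in 6-month males. Sums of fibre markers overlapped between the ages in both sexes. The 8 slow-fibre markers summed to 37810 to 52170 CPM in 20-month females, against 31260 to 52400 CPM in 6-month females, and to 21470 to 43050 CPM in 20-month males, against 24330 to 39860 CPM in 6-month males. Of these 8, 2 rose and 3 fell in females (median -0.42) and 2 rose and 6 fell in males (median -0.69). The 9 fast-fibre markers summed to 19660 to 30120 CPM in 20-month females, against 25270 to 39950 CPM in 6-month females, and to 24550 to 39410 CPM in 20-month males, against 31320 to 39100 CPM in 6-month males, and in each sex 1 of them rose, while 4 fell in females and 5 in males. Of the 14 neutrophil and marrow markers 0 were called in females and 7 fell in males (median -3.05). In males their sums overlapped, at 0.9748 to 3.654 CPM at 20 months, against 0.5072 to 56.98 CPM at 6 months. The highest were 56.98 CPM in 6-month male replicate 1 and 13.56 CPM in replicate 2. All others of that group were at 0.5072 to 4.832 CPM. The part of these transcripts in the change of the members was not tested.

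Genes that work with the proteasome moved both ways between 6 and 20 months, against a background in which 18.2% of all genes rose and 17.8% fell in females, and 22.6% rose and 22% fell in males. Of 18 tested partners of the complex 7 rose and 7 fell in females, and 6 rose and 9 fell in males. Pomp, the maturation protein of the core, fell at -0.62 and -0.67, and so did Sem1, a small cap subunit, at -1.04 in both sexes, and Adrm1, a ubiquitin receptor of the cap, at -0.64 and -0.60. The shuttle proteins Ubqln1 and Ubqln2 rose, Ubqln2 at 0.63 and 0.81. Of 13 genes of the NRF1 pathway 7 rose and 0 fell in females, and 6 rose and 1 fell in males. Sel1l, which with the ligase Syvn1 retrieves proteins from the endoplasmic reticulum, rose to a mean of 93.6 CPM in 20-month females, against 38.1 CPM in 6-month females, and Ddi2, the protease that activates NRF1, rose at 0.73 and 0.86 (Ddi2 and Vcp stand in both lists). Nfe2l1 itself was at 0.56 in females (SE 0.21, edgeR QL adjusted p = 0.030) and 0.18 in males (SE 0.17, adjusted p = 0.43).

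Of 11 genes for ubiquitin and its first enzymes, 2 rose and 5 fell in females and 2 rose and 7 fell in males. The activating enzymes Uba1 and Uba6 rose, Uba1 at 0.53 and 0.58, while Rps27a, which encodes ubiquitin fused to a ribosomal protein, fell at -1.11 and -1.16. Of 9 muscle ubiquitin ligases 4 rose and 1 fell in females, and 5 rose and 2 fell in males. Fbxo32 rose at 0.88 and 1.03, Nedd4 at 0.95 in both sexes, and Stub1 fell at -1.03 and -1.05. Trim63 was at -0.21 and -0.44, not past the threshold. Of the immunoproteasome genes Psmb10 fell, at -0.61 and -0.87. In a pair of other complexes, the CCT chaperonin and the COP9 signalosome, 12 of 17 genes fell in females and 16 of 17 in males, with medians of -0.40 and -0.52.

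The lists were recounted with the length and GC offsets, a choice made after their values were seen, and fewer of their genes rose. Of the partners 0 rose and 2 fell in females, and 1 rose and 11 fell in males, Pomp and Sem1 falling in both sexes and Ubqln2 rising in males. Of the NRF1 pathway 2 rose and 0 fell in females and 3 rose and 1 fell in males, with Sel1l at 0.49 and 0.34, past the threshold in both sexes, and Ddi2 at -0.09 and 0.02, past it in neither. Of the ubiquitin genes 0 rose in either sex, and 5 fell in females and 7 in males. Of the ligases 1 rose and 1 fell in females, and 3 rose and 2 fell in males, where Nedd4 was at 0.45 and 0.43, Stub1 at -0.63 and -0.72, and Fbxo32 at -0.01 and 0.14, the last past the threshold in neither sex. Psmb10 fell in males at -0.50 and was at -0.17 in females, not past the threshold. Of the other complexes 6 of 17 genes fell in females and 13 in males.

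By 28 months, in the same batch, the members stood closer to 6 months. In 28-month females 1 member rose and 8 fell against 6-month females, where 9.91% of all genes rose and 9.04% fell, with a median member at -0.15. In 28-month males 1 rose and 14 fell, where 6.76% of all genes rose and 9.38% fell, with a median of -0.21. The median of all genes was at 0.09 in females and 0.02 in males. Psmb2, Psmb4, Psmb6, Psmb7, Psma4 and Psmg1 fell in both sexes, and Psmd1 rose in both. No ATPase passed in either sex, while 4 of 7 tested beta-ring genes in females and 5 in males fell.

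Psmb7 had the smallest p among females. It was at 159, 181 and 255 CPM at 28 months, against 219, 279, 297 and 247 CPM at 6 months, a log2 fold change of -0.46 (SE 0.11, edgeR QL adjusted p = 0.0036) with groups that overlapped. The 5 males of 28 months had 215, 206, 215, 206 and 217 CPM, against 234, 269 and 295 CPM at 6 months, without overlap (-0.32, adjusted p = 0.031). Psmg1 was at 7.76, 9.10 and 10.36 CPM in 28-month females, against 10.40, 11.3, 12.7 and 13.8 CPM in 6-month females (-0.40, adjusted p = 0.0086). Males had 9.80, 7.93, 9.34, 9.20 and 9.70 CPM at 28 months, against 10.9, 12.4 and 15.2 CPM at 6 months (-0.49, SE 0.11, adjusted p = 0.0010). Psma4 was at -0.37 in females, and Psma1 and Psmd9 were at -0.31 and -0.36 in males. Psmd1 was at 0.33 in females and 0.30 in males (adjusted p = 0.038 and 0.047).

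These counts at 28 months rested on single libraries. In females the count of members called was 19 without 28-month replicate 13, 15 without 6-month replicate 1, 5 without 28-month replicate 11, 4 without 6-month replicate 2 and 0 without 6-month replicate 3. The count in males was 9 without 28-month replicate 11, 6 without replicate 14, 6 without replicate 15, 3 without 6-month replicate 5 and 2 without replicate 6. Without the doubted libraries the calls in females did not hold: 2 members rose and 1, Psmg1, fell, with the median member at 0.04 in place of -0.15, and of the 9 calls only that of Psmg1 was kept. Among females of these ages that fit kept only 28-month replicates 9, 11 and 13 and 6-month replicates 1, 2 and 4. The mean log2 CPM over members was 6.31 in 28-month replicate 13, above the highest 6-month female at 6.22. In males 1 rose and 20 fell without the doubted libraries, the 15 called with them included. Over all genes 1304 in females and 4418 in males passed in that fit, against 3452 and 2940 with all libraries. Of the pathway lists, the ligases Fbxo32 and Nedd4 rose in both sexes, at 1.03 and 0.52 in females and 0.67 and 0.53 in males, and Stub1 and Sem1 fell in both. With length and GC offsets 0 members passed in either sex, and the median member lay at -0.04 and -0.06 from the median of all genes.

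Between 20 and 28 months most members rose. In 28-month females 30 rose and 0 fell against 20-month females, where 17.3% of all genes rose and 12.6% fell. In 28-month males 29 rose and 1 fell, where 8.25% of all genes rose and 8.78% fell. The median member was at 0.33 in both sexes, against 0.09 in females and 0.0006 in males for the median of all genes. In both sexes 27 members rose. This comparison shares its 20- and 28-month libraries with those above. All 7 tested alpha-ring genes rose in both sexes, as did 6 of 7 tested beta-ring genes in females and 7 in males, and 5 of 6 ATPases in each sex.

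Psmc3, a cap ATPase, had the smallest p in females, at 161, 210 and 292 CPM at 28 months, against 145, 151 and 161 CPM at 20 months (0.49, SE 0.09, edgeR QL adjusted p = 1.75e-05). Its lowest 28-month value, 160.8 CPM, was next to its highest 20-month value, 160.5 CPM. Psmd4 was at 121, 174 and 260 CPM in 28-month females, against 116, 126 and 133 CPM in 20-month females (0.59, SE 0.11, adjusted p = 3.2e-05), with 1 library of 28 months inside the 20-month range. In males Psmb4 was at 166, 158, 153, 165 and 162 CPM at 28 months, against 94.2, 110.8 and 128 CPM at 20 months, without overlap (0.55, SE 0.10, adjusted p = 4.1e-05). In females the same gene was at 0.55 (SE 0.10, adjusted p = 4.2e-05). Psmb6 and Psmb5 rose in males at 0.53 and 0.55. The partners Pomp, Sem1 and Adrm1 rose in both sexes, Pomp at 0.35 in females and 0.41 in males, and Sel1l fell in both, at -0.80 and -0.71. Psme4 fell in males, at 96.2, 117, 171, 165 and 161 CPM at 28 months, against 161, 179 and 217 CPM at 20 months (-0.37, SE 0.12, adjusted p = 0.024), and the groups overlapped.

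Without the doubted libraries 33 members were called in females and 34 in males, the 30 of each sex among them. Over all genes that fit called 5079 in females and 4213 in males, against 5452 and 3102 with all libraries. Leaving out single libraries gave 20 to 31 calls in females, the 20 being without 28-month replicate 13, and 26 to 33 in males. With length and GC offsets 3 members, Psma2, Psma7 and Psme4, rose in females, where 7.79% of all genes rose and 4.15% fell. In males 0 were called, where 0.714% of all genes rose and 0.73% fell. Relative to the median of all genes the median member was at 0.10 in females and 0.16 in males with the offsets. Without them it was at 0.24 and 0.33. The Spearman correlation with length was -0.52 over the members and -0.39 over all genes in females, and -0.57 and -0.50 in males. Endothelial markers summed to 136 to 421 CPM in 28-month females, against 582 to 726 CPM in 20-month females. In males they summed to 322 to 509 CPM at 28 months, against 611 to 789 CPM at 20 months. In females 14 of 14 neutrophil and marrow markers rose. Their sums were 3.38 to 1566 CPM at 28 months, against 1.17 to 2.86 CPM at 20 months, where Mpo and Camp were at 0. The highest were 1566 CPM in 28-month replicate 10, 543 CPM in replicate 12 and 68.4 CPM in replicate 9, followed by 6.04 CPM in replicate 8. Also in females 12 of 12 keratinocyte markers rose. Their sums were 4.19 to 8352 CPM at 28 months, against 3.10 to 4.27 CPM at 20 months, where Krt14 and Krt15 were at 0. The 8352 CPM was in 28-month replicate 8, and all others of that group were at 4.19 to 6.71 CPM. In males 0 markers of either list were called. The part of these transcripts was not tested, and the counts of members without the libraries that held most of them are those above.

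**Figure D4:**
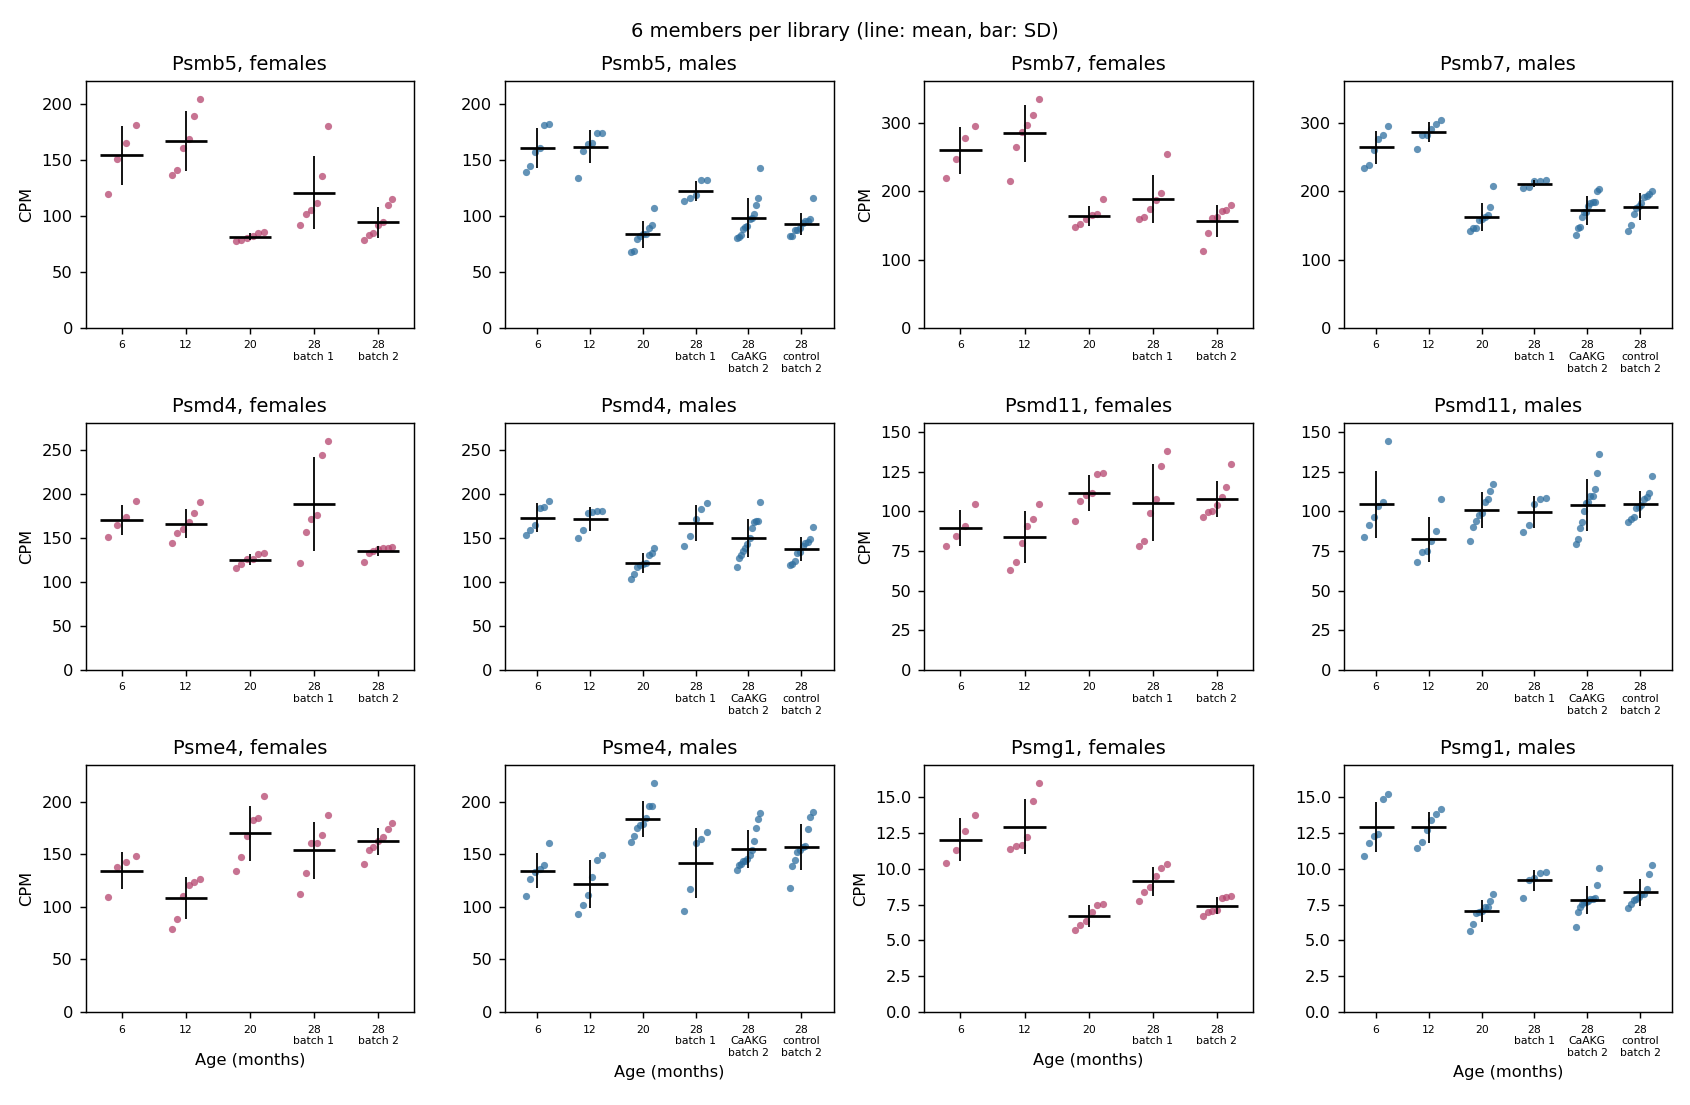
CPM of Psmb5, Psmb7, Psmd4, Psmd11, Psme4 and Psmg1 in each library by age and batch, females and males in separate panels on the same axis for each gene. Points are libraries, lines are means and bars are SD. Within batch 1 Psmb5, Psmb7 and Psmg1 are high at 6 and 12 months and lowest at 20 months, Psme4 is highest at 20 months, and Psmd11 overlaps between 6 and 20 months.

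Between 6 and 12 months little changed among the members. In 12-month females 0 rose and 1 fell against 6-month females, where 0.0384% of all genes rose and 0.192% fell. That one was Psmd1, at 61.6, 75.5 and 92.6 CPM at 12 months, against 118, 114, 81.1 and 115 CPM at 6 months (-0.49, SE 0.12, edgeR QL adjusted p = 0.047). The call was lost without 12-month replicate 1, 3, 4 or 5 or 6-month replicate 1, 2 or 4, each giving 0 calls, and 3 members passed without 12-month replicate 2. In 12-month males 0 rose and 1 fell, where 3.02% of all genes rose and 6.82% fell. Psme3, the nuclear activator PA28 gamma, was at 49.3, 55.98 and 74.9 CPM at 12 months, against 73.1, 77.7 and 86.5 CPM at 6 months (-0.40, SE 0.11, adjusted p = 0.010). The highest 12-month value is that of replicate 3, one of the libraries with markers of the other sex. Leaving it out, 7 members passed, without 12-month replicates 4 and 5 the counts were 3 and 2, and without 6-month replicates 4, 5 and 6 they were 2, 4 and 2. The Spearman correlations of log2 fold change with length were negative here, over the members -0.55 in females and -0.53 in males.

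The sexes were compared in 2 ways. In the age changes the difference between males and females was tested as an interaction. For 20 against 6 months 0 members passed, where 0% of all genes were higher and 0% lower. Of the 45 members 2 were at an unadjusted p under 0.05, against 844 of all 18218 genes. They were Psmd14 at -0.31 and Psmd11 at -0.37 (male minus female change). For 28 against 6 months 0 members passed, where 0.11% of all genes were higher and 0.22% lower. Here 0 members had an unadjusted p under 0.05, against 2157 of all genes. The smallest p belonged to Psmd8 (-0.40, SE 0.22, edgeR QL adjusted p = 0.48). Without the doubted libraries Psmd8 passed in this interaction, at -0.92 (edgeR QL adjusted p = 0.021). Over all genes 450 passed there, against 60 with all libraries. DESeq2 called 0 members in both interactions. At 28 months in batch 2, males against females gave 0 members, where 0.917% of all genes were higher and 0.379% lower. Of the 45 members 6 were at an unadjusted p under 0.05, against 2529 of all 18218 genes. DESeq2 called 0 members there. The smallest p was that of Psmg4, at a mean of 5.75 CPM in males and 4.21 CPM in females (0.45, SE 0.16, adjusted p = 0.16).

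Control males of 28 months were sequenced in both batches. In batch 2 against batch 1, 0 members rose and 1 fell, where 0.818% of all genes rose and 0.198% fell. Of the 45 members 40 were below 0 and 25 had an unadjusted p under 0.05, against 2579 of all 18218 genes. The median member was at -0.21, against 0.01 for the median of all genes. Psmc1, a cap ATPase, was the one called, at a mean of 152 CPM in batch 2 and 188 CPM in batch 1 (-0.31, SE 0.08, edgeR QL adjusted p = 0.049). DESeq2 called 10 members and 669 of all genes, and edgeR QL without the doubted libraries called 6 members and 825 of all genes. The count of members called by edgeR QL was 5 without batch 2 replicate 1. It was 0 without any one of batch 2 replicates 2, 3 and 5 to 10 and batch 1 replicates 11, 13, 14 and 15. The Spearman correlation of this difference with length was 0.38 over the members. Levels at 28 months in batch 2 were therefore not set against the younger groups of batch 1.

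Between CaAKG and control males no member differed past the threshold. Of the 45 members 0 were called, where 0.0659% of all genes rose and 0% fell. No member had an unadjusted p under 0.05 by edgeR QL, and DESeq2 called 0. Over all genes 1216 had an unadjusted p under 0.05. The members' log2 fold changes ran from -0.18 to 0.22, with a median of -0.0046. Psmd5 had the smallest p, at a mean of 31.4 CPM in CaAKG males and 35.7 CPM in control males (-0.18, SE 0.11, edgeR QL adjusted p = 0.86), followed by Psmd4, at 150 and 137 CPM in the same order (0.13, SE 0.08). Psmb5 was at 80.8, 94.2 and 143 CPM in CaAKG males, against 81.7, 91.3 and 116 CPM in control males, and Psmg1 at 5.97, 7.73 and 10.1 CPM against 7.28, 8.13 and 10.3 CPM. Of the partner, NRF1, ubiquitin, ligase and immunoproteasome lists 0 genes passed, while 8 of 14 neutrophil and marrow markers rose. Sums of these markers were 1.27 to 859 CPM in CaAKG males and 1.18 to 6.06 CPM in control males, with medians of 4.78 and 3.10 CPM. The highest CaAKG sums were 859 CPM in replicate 7 and 242 CPM in replicate 6, both doubted libraries, followed by 23.9 CPM in replicate 9. Without the doubted libraries, 4 of them in the CaAKG group, 0 members and 0 of all genes passed.

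Within groups, libraries with more of one subunit tended to have more of the others. Over 77 libraries, with each group's mean taken out, the median Pearson correlation of log2 CPM over 990 pairs of members was 0.40, and 858 pairs were above 0. Psma6 and Psmb1 were the closest pair at 0.89, and Psmb3 and Psmb6 reached 0.88. Psmb1, Psmb7 and Psma3 followed the mean of the other members most closely, at 0.87, 0.86 and 0.86. Psmf1, Psme2b, Psme1 and Psmg1 followed it least, at -0.12, -0.12, 0.07 and 0.09, and Psmd11 and Psme1 had the lowest value of any pair, -0.48. These values share libraries, depth and scaling and are a description only.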

How the data were processed

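Soleus RNA was sequenced in 78 libraries. A single table of expected counts per gene was deposited by the authors; per the submitters' processing notes the tools were FastQC, STAR 2.7.11b and RSEM 1.3.3 with mm10, with no annotation release or strand setting given. In the 78 columns used, 8.99% of values were not whole (tolerance 1e-06), so expected counts were rounded; 55 columns matching no label were not used. Expected counts split reads of near-identical genes by estimate. The label M28 was read as 28 months. A pair of libraries of 12-month females sharing an animal tag was summed, giving 77 replicates.

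Genes passing filterByExpr (minimum count 10, total 15) entered one edgeR 4.0.16 quasi-likelihood fit with TMM factors and 11 group means, with Benjamini-Hochberg adjustment over 18218 genes. CPM use these factors. The fit was tested on simulated data. GENCODE M21 gave positions and transcript lengths, the latter for 97.5% of genes tested. A gene's length and GC content are medians over its basic-set transcripts. Alternatives were DESeq2 1.42.0, RLE factors, other count filters, the mitochondrial genome left out, only the compared groups, a replicate block, length and GC offsets (splines of 5 degrees of freedom) and leaving out libraries. Full values are given for the 3 members with the smallest p in each direction and a panel of 12 members. The members, lists and tests were chosen with earlier results of these data known.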

Additional observations from a re-analysis of the deposited data

Results flagged for a closer look

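Among 130 sets of values within groups of 4 to 10 libraries (the mean over members and a panel of 12 members), 6 had a library far from the others; chance gives about 1 in 20. The library 20-month female replicate 3 had a mean log2 CPM over members of 5.587, against 5.674 to 5.724 in the other libraries of its group. Batch 2 control male replicate 1 (28 months) held Psmb5 at 116.4 CPM, against 81.7 to 97.4 CPM in the others, and Psmb6 at 120.0 CPM, against 79.5 to 96.5 CPM. Psmd4 was at 122.8 CPM in 28-month batch 2 female replicate 7, against 133 to 139.6 CPM in the others. Psmd11 was at 144 CPM in 6-month male replicate 1, against 83.9 to 106 CPM in the others. Psme1 was at 20.7 CPM in 28-month batch 1 female replicate 9, against 32.7 to 38.2 CPM in the others.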

How the results depend on the processing

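For the members with the smallest p in each comparison, recomputed under each alternative, 833 log2 fold changes kept their direction and side of the threshold, 94 lost the call, 1 gained it and 3 changed direction; other members were not in this tally, and Psmd2, Psmd5 and Psme3 gained a call with the offsets in 20- against 6-month males. With length and GC offsets the count of members called was 11 instead of 38 for 20 against 6 months in females (28 instead of 39 in males), 3 instead of 30 for 28 against 20 months in females and 0 instead of 30 in males, and 0 for 28 against 6 months in both sexes, for 12 against 6 months in both sexes and for batch 2 against batch 1. Psme4 reversed with the offsets, to -0.51 and -0.41 in 20- against 6-month females and males and to 0.11 in 28- against 20-month males. For 12 against 6 months in females the 1 member called became 0 with RLE factors, no count filter, the mitochondrial genome left out, the doubted libraries left out, only the compared groups or the replicate block. Over all genes 11, 5, 11, 0, 0 and 0 passed in these fits, against 42 as reported. For males the 1 call became 2 with RLE factors, 2 with a minimum count of 50, 4 without the mitochondrial genome, 7 without the doubted libraries, 0 with only the compared groups, 0 with the replicate block and 5 with DESeq2. For 28 against 6 months in females the 9 became 5 with no filter, 3 without the doubted libraries and 0 with only the compared groups. Over all genes 2646, 1304 and 0 passed in these fits, against 3452 as reported. For batch 2 against batch 1 the 1 became 3 with RLE factors, 0 with no filter, 3 with a minimum count of 50, 0 without the mitochondrial genome, 6 without the doubted libraries, 8 with only the compared groups and 10 with DESeq2. The interaction of sex with 28 against 6 months gave 1 without the doubted libraries. The cause of these moves was not tested. Leaving out 1 library at a time gave 33 to 38 and 38 to 40 calls for 20 against 6 months in females and males, 20 to 31 and 26 to 33 for 28 against 20 months, 0 to 19 and 2 to 21 for 28 against 6 months, 0 to 3 and 1 to 7 for 12 against 6 months, 0 to 5 for batch and 0 to 0 elsewhere. Replicate numbers did not pair the libraries: same-numbered libraries correlated at -0.176 to 0.169 in their deviations from the group means. With the replicate block 37 members were called for 20 against 6 months in females and 36 in males. It gave 0 for CaAKG, for sex at 28 months and for 12 against 6 months in both sexes. The block was not fitted for the interactions, and the remaining comparisons shared too few numbers for it. Depth limits Psme2b and Psmc3ip most, with medians of 1.41 and 2.48 CPM.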
